A study of Mus musculus with 50 samples.

Results

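The hearts of 5 female Tgαq*44 mice aged 4 months were compared with the hearts of 5 female wild-type FVB mice aged 14 months, over all genes of an RNA-seq count matrix. Tgαq*44 mice carry, on the FVB background, a constitutively active Gαq protein driven in cardiomyocytes only, and develop heart failure slowly. These 10 libraries were chosen by strain and age among the 50 libraries of the series, which holds 5 mice of each strain at 4, 8, 10, 12 and 14 months. The 5 female FVB mice aged 4 months are shown beside them, because they share their age with the transgenic mice and their strain with the old mice. The tissue was the apex of the left ventricle, and all mice had standard chow and a cycle of 12 h light and 12 h dark. The groups are called young Tgαq*44, old FVB and young FVB hearts below. The question was what early Gαq-driven disease and late normal ageing do not share. Strain and age changed together between the groups, so that for any gene the effect of the transgene and that of age cannot be told apart in this comparison. The mice were sequenced in 3 runs, the run of each library was not given in the sources used here, and its part in the results was not tested.

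Gαq is the G protein subunit through which angiotensin, endothelin and alpha1-adrenergic receptors activate phospholipase C, which releases calcium from internal stores and activates protein kinase C. In cardiomyocytes a lasting Gαq signal is known for hypertrophy, return of a foetal gene programme and failure. Ageing of the mouse heart is known for stiffening of the interstitium, a low-grade immune infiltrate and a shift in mitochondrial gene use.

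Library totals were 13639021 to 21395747 counts (median 17212305) in young Tgαq*44 hearts and 9479003 to 21601942 counts (median 13002014) in old FVB hearts. Values are counts per 1000000 after scaling for library composition (CPM), and 15129 of 54532 genes passed the filter on low counts and were tested. Pearson correlations of log2 CPM across genes, which are not independent replicates, were 0.983 to 0.990 between libraries within young Tgαq*44 hearts, 0.972 to 0.987 within old FVB hearts and 0.963 to 0.979 between them. The ventricular cardiomyocyte markers summed to 49743 to 62965 CPM in young Tgαq*44 hearts and 57044 to 62180 CPM in old FVB hearts. Mitochondrially encoded genes held 23.5 ± 2.96% of counts in young Tgαq*44 hearts and 22.6 ± 2.37% in old FVB hearts (mean ± SD, n = 5 each, exact two-sided permutation test, p = 0.627). Haemoglobin genes held 0.307% of counts in old FVB mouse 1, which also stood apart from its group in immune genes, as given with those genes. Residual ribosomal RNA, read from the gene CT010467.1, which was chosen after its values were seen, was 33124, 20621, 14196, 14077 and 26577 CPM in young Tgαq*44 hearts, against 6955, 9186, 6886, 5742 and 7488 CPM in old FVB hearts (log2 fold change 1.58 ± 0.35, adjusted p = 0.000705). It lay at 23709 ± 5894 CPM in young FVB hearts. Because this level separated the groups, it was also entered as a covariate in the fit of young Tgαq*44 against old FVB hearts. This alternative was chosen after seeing the data. Shares of counts and comparisons with young FVB hearts were not refitted with it.

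Of the 15129 genes, 619 (4.09%) were DEGs, which here means an adjusted p under 0.05 by edgeR's quasi-likelihood test and a log2 fold change, young Tgαq*44 over old FVB, above 1 or below -1. Of these, 357 (2.36%) were higher and 262 (1.73%) were lower in young Tgαq*44 hearts. With the ribosomal RNA level as a covariate, 206 genes were higher and 273 lower. At the adjusted p alone, 1683 genes (11.1%) were higher and 1475 (9.75%) were lower, and these percentages are the background for every gene list below. For the lists in which edgeR called 0 genes in a direction, DESeq2 and limma-voom called 0 as well, and exceptions at an unadjusted p under 0.05 are given beside the count. The 95% interval of the log2 fold change lay wholly between -1 and 1 for 12006 genes (79.4%), so most of the transcriptome differed by less than 2-fold. The CPM of the 5 young Tgαq*44 hearts lay all above those of the 5 old FVB hearts for 1278 genes (8.45%) and all below them for 919 genes (6.07%). Among the DEGs, 257 of the higher and 166 of the lower ones had no overlap between the groups. A fold of 4 or more was reached by 38 higher and 54 lower DEGs.

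**Figure D1:**
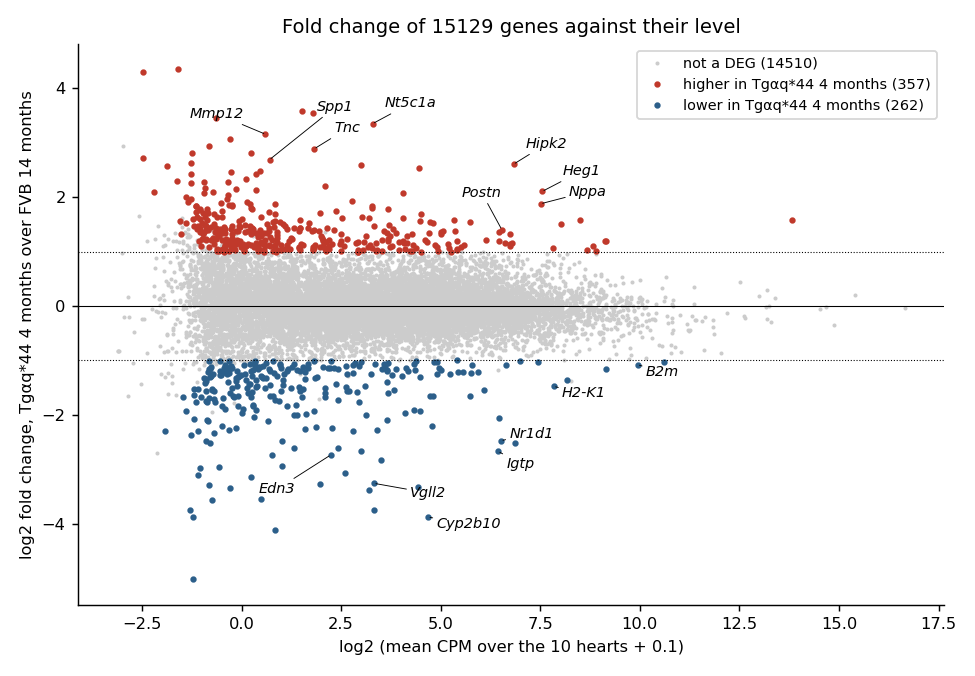
Log2 fold change (young Tgαq*44 over old FVB, vertical axis) against mean level (horizontal axis, log2 scale) of the 15129 genes tested. The 357 DEGs higher and the 262 DEGs lower in young Tgαq*44 hearts are coloured, and named genes include Nppa, Tnc and Hipk2 above and Cyp2b10, Nr1d1 and Igtp below the zero line.

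Genes other than protein-coding ones made up 104 of 357 higher DEGs (29.1%) and 26 of 262 lower DEGs (9.92%). Of all 15129 genes tested they made up 1758. Antisense genes, 338 of the genes tested, numbered 28 among the higher and 0 among the lower DEGs, with 2 lower ones at an unadjusted p under 0.05. The strand setting of the read counting was not given in the sources used here, so reads of an antisense gene and of its partner cannot be told apart. Protein-coding DEGs had a median exonic length of 5.46 kb where higher and 3.33 kb where lower, beside 4.52 kb over all protein-coding genes tested. The non-coding RNA Meg3 had 21.8 to 34.8 CPM in young Tgαq*44 hearts, against 13.4 to 20.7 CPM in old FVB hearts (log2 fold change 0.82 ± 0.21, adjusted p = 0.00280).

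Gnaq, the gene of Gαq itself (GRCm38.p6, chromosome 19, 16132831 to 16387463), was higher in every young Tgαq*44 heart than in any old FVB heart. Its level was 36.7, 36.1, 27.6, 27.9 and 26.3 CPM in young Tgαq*44 hearts, against 17.6, 14.0, 20.1, 18.2 and 10.2 CPM in old FVB hearts (log2 fold change 0.95 ± 0.19, adjusted p = 0.000126). Young FVB hearts lay between, at 23.1 ± 3.50 CPM (SD, n = 5). Against these young FVB hearts, the log2 fold change was 0.42 in young Tgαq*44 hearts (adjusted p = 0.108) and -0.54 in old FVB hearts (adjusted p = 0.0319), and both comparisons share the 5 young FVB libraries. Counts per gene do not separate transgene reads from those of the mouse's own Gnaq. Of 39 tested genes of Gq, phospholipase C and protein kinase C signalling, 5 (12.8%) were higher and 2 (5.13%) were lower, near the background shares. The 5 higher members were Gnaq, the diacylglycerol kinase Dgka, the calcium release channel Itpr1 and the transcription factors Nfatc3 and Nfatc4, of which the last 3 lost the call with the ribosomal RNA covariate. The 2 lower members were receptors that feed the pathway. Agtr1a, the type 1 angiotensin receptor, had 34.8, 29.8, 44.4, 36.8 and 33.9 CPM in young Tgαq*44 hearts, against 57.6, 62.4, 63.1, 58.5 and 79.0 CPM in old FVB hearts (log2 fold change -0.84 ± 0.17, adjusted p = 0.000184). Adra1a, the alpha1A-adrenergic receptor, had 14.0, 9.58, 17.8, 11.3 and 13.4 CPM in young Tgαq*44 hearts, against 25.9, 27.7, 24.7, 22.0 and 18.9 CPM in old FVB hearts (log2 fold change -0.85 ± 0.18, adjusted p = 0.000469). The groups did not overlap for either receptor. The effector Plcb1, a phospholipase C beta, had a log2 fold change of 0.02 (95% interval -0.37 to 0.40), and Prkca, protein kinase C alpha, of 0.01 (95% interval -0.17 to 0.19). Rcan1, a target of the calcium-activated phosphatase calcineurin, was higher at 228, 319.9, 284, 338 and 406 CPM in young Tgαq*44 hearts, against 143, 207, 186, 194 and 245 CPM in old FVB hearts (log2 fold change 0.69 ± 0.19, adjusted p = 0.00718), and 1 old FVB heart lay above the lowest young Tgαq*44 heart.

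The natriuretic peptide genes of the stressed heart behaved unlike each other. Nppa (GRCm38.p6, chromosome 4, 148000722 to 148002079), which encodes atrial natriuretic peptide, had 228, 330.3, 207, 278 and 397 CPM in young Tgαq*44 hearts, against 78.6, 43.0, 64.5, 94.0 and 110.3 CPM in old FVB hearts (log2 fold change 1.88 ± 0.38, adjusted p = 0.000266). The groups did not overlap, and the ratio of means was 3.68. Nppb, which encodes B-type natriuretic peptide, had 279.6, 412, 537, 612 and 658 CPM in young Tgαq*44 hearts, against 259.8, 265, 346, 509 and 454 CPM in old FVB hearts (log2 fold change 0.45 ± 0.29, adjusted p = 0.293), and the groups overlapped. With the ribosomal RNA level as a covariate the Nppb value passed the threshold (log2 fold change 0.94, adjusted p = 0.0303). Against young FVB hearts the Nppa log2 fold change was 2.73 in young Tgαq*44 hearts (adjusted p = 2.1e-06) and 0.85 in old FVB hearts (adjusted p = 0.103). Those of Nppb were 1.89 in young Tgαq*44 hearts (adjusted p = 6.65e-06) and 1.45 in old FVB hearts (adjusted p = 0.000194).

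Over 18 tested natriuretic peptide, foetal and hypertrophic genes, 4 were higher (22.2%) and 5 were lower (27.8%), with a median log2 fold change of 0.12 beside -0.01 over all genes. Xirp2, an actin-binding protein of the intercalated disc, had 737, 608, 537, 794 and 538 CPM in young Tgαq*44 hearts, against 334, 265, 322, 409 and 262 CPM in old FVB hearts (log2 fold change 1.01 ± 0.16, adjusted p = 3.84e-06). Myot, the Z disc protein myotilin, had 89.3, 113, 101, 112 and 88.7 CPM in young Tgαq*44 hearts, against 191, 168, 172, 227 and 188 CPM in old FVB hearts (log2 fold change -0.91 ± 0.13, adjusted p = 1.31e-06). Neither gene overlapped between the groups, and they moved in opposite directions. Ankrd1, a stretch-responsive nuclear and sarcomeric protein, had a log2 fold change of 0.04 (95% interval -0.28 to 0.37). Against young FVB hearts its log2 fold change was 0.89 in young Tgαq*44 hearts (adjusted p = 7.84e-05) and 0.85 in old FVB hearts (adjusted p = 0.000101). The share of slow myosin heavy chain (Myh7) in all Myh6 and Myh7 counts was 5.70 ± 1.11% in young Tgαq*44 hearts and 4.84 ± 2.20% in old FVB hearts (n = 5 each, exact two-sided permutation test, p = 0.452). Old FVB mouse 5 held 8.73%, and without it the difference was 1.84 percentage points (exact permutation p = 0.0159). By edgeR the Myh7 gene itself was called higher (log2 fold change 0.48, adjusted p = 0.0475). That call was lost with the ribosomal RNA covariate (0.24, adjusted p = 0.470). The share of skeletal actin (Acta1) in Acta1 and Actc1 counts was 4.46 ± 1.61% in young Tgαq*44 hearts and 6.01 ± 1.92% in old FVB hearts (n = 5 each, exact permutation p = 0.230). Without young Tgαq*44 mouse 2 the difference was -2.20 percentage points (exact permutation p = 0.0397), and the smallest p this design can give is 0.00794.

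**Figure D2:**
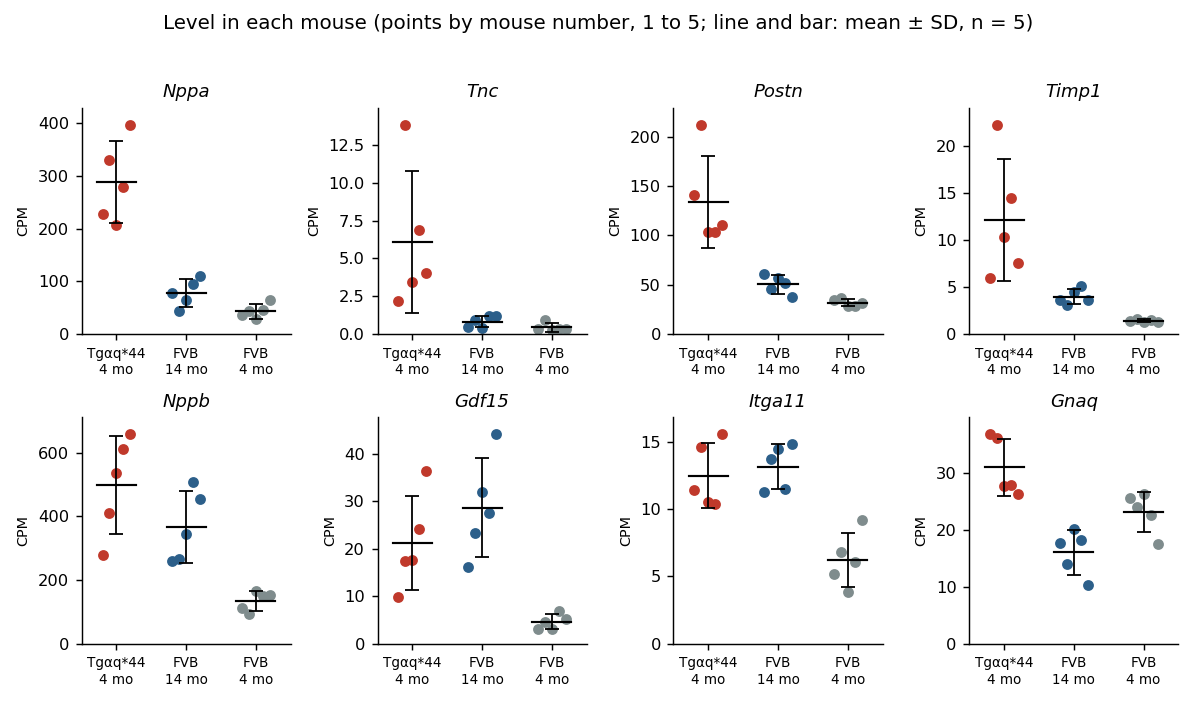
CPM per mouse (points) with mean and SD (bars) of Nppa, Tnc, Postn, Timp1, Nppb, Gdf15, Itga11 and Gnaq in young Tgαq*44, old FVB and young FVB hearts (n = 5 each). Nppa, Tnc, Postn, Timp1 and Gnaq separate young Tgαq*44 from old FVB hearts without overlap, whereas the values of Nppb, Gdf15 and Itga11 overlap.

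Further genes that the study names in heart failure and ageing mostly overlapped between the groups. Gdf15, a stress cytokine of the TGF-beta family, had 9.92, 17.4, 17.6, 24.2 and 36.3 CPM in young Tgαq*44 hearts, against 16.2, 23.4, 32.0, 27.6 and 44.1 CPM in old FVB hearts (log2 fold change -0.45 ± 0.40, adjusted p = 0.480). Itga11, a collagen-binding integrin of fibroblasts, had 11.4, 14.6, 10.5, 10.4 and 15.6 CPM in young Tgαq*44 hearts, against 11.3, 13.7, 14.5, 11.5 and 14.9 CPM in old FVB hearts (log2 fold change -0.08 ± 0.19, 95% interval -0.47 to 0.31). The values of both genes overlapped, and young FVB hearts lay lower for both, at 4.60 ± 1.57 CPM for Gdf15 and 6.22 ± 1.99 CPM for Itga11. Cdkn1a, which encodes the cell cycle inhibitor p21, averaged 23.5 ± 9.55 CPM in young Tgαq*44 hearts and 34.2 ± 5.11 CPM in old FVB hearts (adjusted p = 0.271), both under the 91.6 ± 35.3 CPM of young FVB hearts. Egr2, an immediate early transcription factor, averaged 4.57 ± 1.86 CPM in young Tgαq*44 hearts and 3.15 ± 1.30 CPM in old FVB hearts (adjusted p = 0.373), beside 0.471 ± 0.348 CPM in young FVB hearts. Sfrp2, a secreted Wnt modulator, Cilp, a matrix protein of fibroblasts, and Nrg1, the ErbB ligand neuregulin, had adjusted p values of 0.567, 0.0785 and 0.202. Their log2 fold changes were 0.23 ± 0.25, 0.69 ± 0.28 and -0.52 ± 0.28, and Cilp passed the threshold without young Tgαq*44 mouse 3 (log2 fold change 0.89). Egr3, of the same family as Egr2, averaged 17.8 ± 7.81 CPM in young Tgαq*44 hearts and 7.62 ± 2.35 CPM in old FVB hearts (log2 fold change 1.23 ± 0.38, adjusted p = 0.0170), a call lost without young Tgαq*44 mouse 5 (0.96), without old FVB mouse 1 (1.07) and with the ribosomal RNA covariate (1.17). Of 26 immediate early genes, 2 were higher (7.69%), Egr3 and Fosb, and 1 was lower (3.85%), both shares below the background. The lower one was Jun, a subunit of the transcription factor AP-1, at 46.5 to 73.2 CPM in young Tgαq*44 hearts, against 103 to 145 CPM in old FVB hearts (log2 fold change -0.96 ± 0.18, adjusted p = 5.43e-05).

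Many matrix genes were higher in young Tgαq*44 hearts. Of 43 interstitial collagens and matrix proteins, 19 were higher (44.2%, beside 11.1% of all genes) and 1 was lower, with a median log2 fold change of 0.48. The count was 14 without young Tgαq*44 mouse 2, the highest heart for Tnc, Postn, Mfap4, Lum and Col3a1, and 12 with the ribosomal RNA level as a covariate. Against young FVB hearts the list was higher in both groups. Its median log2 fold change was 0.96 in young Tgαq*44 hearts and 0.57 in old FVB hearts, beside 0.0007 and 0.025 over all genes. Both comparisons share the young FVB libraries. Tnc, which encodes the injury-induced glycoprotein tenascin C, had 2.19, 13.9, 3.45, 6.87 and 4.06 CPM in young Tgαq*44 hearts, against 0.444, 0.963, 0.378, 1.18 and 1.16 CPM in old FVB hearts (log2 fold change 2.89 ± 0.50, adjusted p = 3e-05). Its log2 fold change without young Tgαq*44 mouse 2 was 2.35. Postn, periostin of activated fibroblasts, had 141, 213, 104, 103 and 110.4 CPM in young Tgαq*44 hearts, against 61.4, 45.5, 57.4, 51.8 and 37.2 CPM in old FVB hearts (log2 fold change 1.41 ± 0.21, adjusted p = 1.38e-06). Every young Tgαq*44 heart lay above every old FVB heart for both genes, and young FVB hearts lay lower still for Postn, at 32.0 ± 3.55 CPM.

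Mfap4 and Lum were also among the higher members. Mfap4, a microfibril-associated glycoprotein, had 54.1, 89.1, 41.6, 50.4 and 68.7 CPM in young Tgαq*44 hearts, against 18.7, 23.5, 19.2, 19.1 and 21.0 CPM in old FVB hearts (log2 fold change 1.58 ± 0.21, adjusted p = 2.51e-07). Lum, the collagen-binding proteoglycan lumican, had 398, 516, 407, 409 and 339 CPM in young Tgαq*44 hearts, against 254, 246, 261, 218 and 229.6 CPM in old FVB hearts (log2 fold change 0.78 ± 0.11, adjusted p = 4.42e-07). Both genes separated the groups without overlap. Old FVB hearts did not differ from young FVB hearts in Mfap4 beyond the threshold (log2 fold change 0.14, adjusted p = 0.705), and for Lum the log2 fold change was 0.29 (adjusted p = 0.0420). Col5a3, a chain of type V collagen, was the 1 lower member, at 7.96 to 17.1 CPM in young Tgαq*44 hearts, against 21.1 to 32.7 CPM in old FVB hearts (log2 fold change -1.07 ± 0.23, adjusted p = 0.000461). Fibrillar collagen genes differed among themselves. Col5a2 was higher (log2 fold change 1.00 ± 0.18, adjusted p = 2.48e-05), and Col1a2 was higher (log2 fold change 0.75 ± 0.19, adjusted p = 0.00269) with its call lost under the ribosomal RNA covariate (0.62, adjusted p = 0.0511). Col3a1 had 276, 498, 178, 192 and 200.0 CPM in young Tgαq*44 hearts, against 149.5, 145, 143, 125 and 129 CPM in old FVB hearts (log2 fold change 0.96 ± 0.26, adjusted p = 0.00552), and the call was lost without young Tgαq*44 mouse 2 (log2 fold change 0.61) and with the ribosomal RNA covariate (0.64). Col1a1 had 222, 393, 135, 174 and 289 CPM in young Tgαq*44 hearts, against 153, 198, 159, 169 and 275 CPM in old FVB hearts (adjusted p = 0.440).

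The basement membrane is the sheet of laminin, nidogen and type IV collagen around cardiomyocytes and capillaries. Of its 16 genes 7 were higher (43.8%) and 0 were lower, with 1 lower at an unadjusted p under 0.05. Nid1, the cross-linker nidogen 1, had 314, 336, 277, 272 and 326 CPM in young Tgαq*44 hearts, against 154, 128, 176, 150.1 and 124 CPM in old FVB hearts (log2 fold change 1.06 ± 0.12, adjusted p = 7.79e-09). Lamc1, the laminin gamma1 chain, had 386, 450.1, 329, 325 and 365 CPM in young Tgαq*44 hearts, against 249, 219, 251, 208 and 211 CPM in old FVB hearts (log2 fold change 0.70 ± 0.09, adjusted p = 1.26e-07). Neither gene overlapped between the groups. Against young FVB hearts, the log2 fold change of Nid1 was 0.34 in young Tgαq*44 hearts (adjusted p = 0.0411) and -0.72 in old FVB hearts (adjusted p = 1.49e-05). The laminin chains Lama4 and Lamb1 were higher by 0.65 and 0.73 on the log2 scale, with no overlap for either.

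Among enzymes that shape the matrix, higher members outnumbered lower ones. Of 24 matrix proteases and inhibitors, 7 were higher (29.2%) and 2 were lower (8.33%, near the 9.75% of all genes). Timp1, an inhibitor of matrix metalloproteinases, had 6.03, 22.3, 10.4, 14.5 and 7.60 CPM in young Tgαq*44 hearts, against 3.61, 3.06, 4.46, 5.15 and 3.63 CPM in old FVB hearts (log2 fold change 1.63 ± 0.29, adjusted p = 3.98e-05). Mmp9, the gelatinase B, went the other way, with 1.10, 1.71, 1.84, 1.24 and 1.33 CPM in young Tgαq*44 hearts, against 5.33, 6.30, 4.39, 4.61 and 6.73 CPM in old FVB hearts (log2 fold change -1.93 ± 0.29, adjusted p = 1.68e-06). The groups did not overlap for either gene. Ctsk, the collagen-degrading cathepsin K, averaged 6.05 ± 2.07 CPM in young Tgαq*44 hearts and 2.89 ± 0.741 CPM in old FVB hearts (log2 fold change 1.04 ± 0.21, adjusted p = 0.000181). Plat, tissue plasminogen activator, was lower, at 11.3 to 13.3 CPM in young Tgαq*44 hearts, against 17.9 to 18.5 CPM in old FVB hearts (log2 fold change -0.53 ± 0.12, adjusted p = 0.000920). Among 20 genes of collagen processing, 5 were higher (25.0%) and 2 lower (10.0%). The lysyl oxidase Loxl4 led the higher ones, with 2.00 to 3.23 CPM in young Tgαq*44 hearts, against 0.722 to 1.29 CPM in old FVB hearts (log2 fold change 1.26 ± 0.25, adjusted p = 0.000131).

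Of 26 TGF-beta genes, 2 were higher and 3 were lower, a share near the background. Ctgf, a matricellular growth factor induced by TGF-beta and by stretch, was lower in young Tgαq*44 hearts at 71.5, 89.8, 114, 140.0 and 155 CPM, against 125, 204, 166, 235 and 294 CPM in old FVB hearts (log2 fold change -0.85 ± 0.22, adjusted p = 0.00389). The ligand Tgfb1 had a log2 fold change of 0.12 (95% interval -0.28 to 0.53) and the receptor Tgfbr2 was higher by 0.45 ± 0.09 (adjusted p = 0.000115). Fibroblast marker genes moved with the matrix genes, and 5 of the 12 markers are themselves on the matrix list. Of the 12 fibroblast markers 6 were higher and 0 were lower, and their summed level was 3232 to 4246 CPM in young Tgαq*44 hearts, against 2460 to 3094 CPM in old FVB hearts. The receptor tyrosine kinase Ddr2 averaged 40.0 ± 7.06 CPM in young Tgαq*44 hearts and 20.9 ± 5.61 CPM in old FVB hearts (log2 fold change 0.93 ± 0.17, adjusted p = 5.37e-05). The summed level of 11 activated fibroblast markers, 7 of them matrix genes, was 323 to 508 CPM in young Tgαq*44 hearts, against 324 to 441 CPM in old FVB hearts, and so overlapped. In whole tissue, more cells of a type and more RNA per cell cannot be told apart, and the part of fibroblast content in the matrix result was not tested.

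Cytokine and chemokine genes were more often higher than all genes were. Of 29 cytokines and chemokines, 8 were higher (27.6%) and 3 were lower (10.3%, near the 9.75% of all genes). Ccl2, a monocyte chemoattractant, had 8.93, 20.8, 19.3, 19.0 and 17.4 CPM in young Tgαq*44 hearts, against 4.39, 6.22, 6.28, 9.44 and 6.83 CPM in old FVB hearts (log2 fold change 1.38 ± 0.29, adjusted p = 0.000282). Ccl12, a mouse chemokine close to Ccl2 that acts on the same receptor, had 5.92, 6.41, 7.78, 14.1 and 4.58 CPM in young Tgαq*44 hearts, against 1.44, 0.876, 1.14, 4.50 and 3.78 CPM in old FVB hearts (log2 fold change 1.74 ± 0.45, adjusted p = 0.00364). Spp1, which encodes osteopontin, had 1.21, 4.82, 2.32, 3.86 and 1.11 CPM in young Tgαq*44 hearts, against 0.556, 0.350, 0.454, 0.214 and 0.387 CPM in old FVB hearts (log2 fold change 2.69 ± 0.40, adjusted p = 1.68e-06). Spp1 and Ccl12 separated the groups fully, and 1 old FVB heart exceeded the lowest young Tgαq*44 heart for Ccl2.

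The macrophage elastase Mmp12 and the interleukin 1 receptor antagonist Il1rn were low but higher in young Tgαq*44 hearts. Mmp12 had 1.81, 4.27, 2.02, 3.10 and 1.70 CPM in young Tgαq*44 hearts, against 0.611, 0.175, 0.227, 0 and 0.242 CPM in old FVB hearts (log2 fold change 3.16 ± 0.49, adjusted p = 3.16e-06). Its log2 fold change was 3.78 without old FVB mouse 1. Il1rn had 1.10, 2.99, 1.96, 1.86 and 1.77 CPM in young Tgαq*44 hearts, against 0.389, 0.350, 0.303, 0.858 and 0.387 CPM in old FVB hearts (log2 fold change 2.13 ± 0.42, adjusted p = 0.000139). Neither overlapped between the groups. The alarmin Il33 averaged 16.1 ± 4.63 CPM in young Tgαq*44 hearts and 6.93 ± 0.713 CPM in old FVB hearts (log2 fold change 1.22 ± 0.20, adjusted p = 5.43e-06). Cx3cl1, a membrane-bound chemokine that also attracts monocytes, was lower (log2 fold change -0.68 ± 0.14, adjusted p = 0.000308). The eosinophil chemoattractant Ccl11 was lower too, at 0.658 to 1.19 CPM in young Tgαq*44 hearts, against 1.89 to 2.68 CPM in old FVB hearts (log2 fold change -1.19 ± 0.27, adjusted p = 0.000993). Of 20 complement genes 3 were higher (15.0%) and 2 were lower (10.0%), near the background shares. The receptor C3ar1 was higher (log2 fold change 0.95 ± 0.22, adjusted p = 0.00106), whereas C4b, a component of the classical pathway, had 14.9 to 23.6 CPM in young Tgαq*44 hearts, against 37.2 to 49.6 CPM in old FVB hearts (log2 fold change -1.15 ± 0.21, adjusted p = 3.95e-05). Macrophage markers summed to 322 to 426 CPM in young Tgαq*44 hearts and 291 to 369 CPM in old FVB hearts, with 3 of 16 markers higher and 0 lower. Of 12 monocyte and neutrophil markers 8 were too low to be tested and 0 of the other 4 passed the test by edgeR, with 1 lower at an unadjusted p under 0.05. Their part in the chemokine result was not tested.

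Antigen presentation was the gene group with the highest share of lower members among the pathway lists. Of 26 tested genes of MHC class I and II presentation, 22 (84.6%, beside 9.75% of all genes) were lower in young Tgαq*44 hearts, with a median log2 fold change of -1.05. With the ribosomal RNA covariate 20 were lower. Against young FVB hearts the median log2 fold change of the list was 0.23 in young Tgαq*44 hearts and 1.28 in old FVB hearts. Over all genes these medians were 0.0007 and 0.025. The summed level was 1437.5 ± 263 CPM in young Tgαq*44, 1239 ± 336 CPM in young FVB and 3094 ± 981 CPM in old FVB hearts. MHC molecules display peptides to T cells, and their genes are induced by interferon gamma. H2-K1, a class I heavy chain, had 159.8, 97.0, 111, 126 and 111 CPM in young Tgαq*44 hearts, against 172, 358, 309, 369 and 482 CPM in old FVB hearts (log2 fold change -1.48 ± 0.29, adjusted p = 0.000165). B2m, the light chain of class I, had 613, 533, 677, 826 and 519 CPM in young Tgαq*44 hearts, against 758, 1104, 1189, 2001 and 1644 CPM in old FVB hearts (log2 fold change -1.08 ± 0.24, adjusted p = 0.000777), a call lost with the covariate (-0.76, adjusted p = 0.0558). Cd74, the invariant chain of class II, had 181, 80.4, 162, 217 and 170.3 CPM in young Tgαq*44 hearts, against 195, 417, 338, 492 and 643 CPM in old FVB hearts (log2 fold change -1.36 ± 0.31, adjusted p = 0.000926). For all 3 genes old FVB mouse 1 was the lowest of its group, and without it the log2 fold changes were -1.65 for H2-K1, -1.23 for B2m and -1.54 for Cd74. H2-DMa, which loads peptide onto class II, was also lower (log2 fold change -1.59 ± 0.29, adjusted p = 3.77e-05). H2-T24, a non-classical class I gene, was the 1 higher member, at 14.4 to 19.6 CPM in young Tgαq*44 hearts, against 6.25 to 10.7 CPM in old FVB hearts (log2 fold change 0.95 ± 0.13, adjusted p = 2.83e-07). Class I genes are near copies of each other, so how reads were divided among them is uncertain.

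Some interferon-induced GTPases were lower as well, among them Igtp, Irgm2 and Tgtp2, whereas others such as Gbp2 (log2 fold change -0.29 ± 0.26, adjusted p = 0.476) and Ifi47 (log2 fold change -0.81 ± 0.37, adjusted p = 0.120) did not pass the test. Igtp (GRCm38.p6, chromosome 11, 58199556 to 58207591), a GTPase of the IRG family that acts on vacuoles of intracellular pathogens, had 29.7, 12.3, 14.9, 42.5 and 18.2 CPM in young Tgαq*44 hearts, against 23.6, 145, 216, 145 and 225 CPM in old FVB hearts (log2 fold change -2.67 ± 0.67, adjusted p = 0.00284). Irgm2, a regulator of the same family, had 48.3, 20.1, 27.3, 45.7 and 27.4 CPM in young Tgαq*44 hearts, against 31.2, 113, 211, 166 and 186 CPM in old FVB hearts (log2 fold change -2.06 ± 0.54, adjusted p = 0.00461). Tgtp2, a T cell specific GTPase with a near copy, had 7.56, 1.77, 2.14, 3.62 and 1.92 CPM in young Tgαq*44 hearts, against 6.11, 11.2, 16.0, 11.6 and 14.1 CPM in old FVB hearts (log2 fold change -1.77 ± 0.53, adjusted p = 0.0129), a call lost with the ribosomal RNA covariate (-1.89). In these 3 genes 4 of 5 old FVB hearts stood above every young Tgαq*44 heart, and old FVB mouse 1 lay among the young Tgαq*44 hearts. Without that mouse the log2 fold changes were -2.95 for Igtp and -2.32 for Irgm2. Members of this family are similar to each other, so their counts may share reads. Of the whole list of 49 interferon response genes, 11 (22.4%) were lower and 1 was higher, with a median log2 fold change of -0.29. The lower count was 14 without old FVB mouse 1 and 7 with the ribosomal RNA covariate. Members outside the GTPases differed among themselves. Ifit1 and Isg15 did not pass the test, with log2 fold changes of -0.58 (95% interval -1.16 to 0.01) and -0.14 (95% interval -0.84 to 0.56). Bst2, which tethers virus particles, was lower (log2 fold change -0.78 ± 0.24, adjusted p = 0.0166), a call lost without old FVB mouse 5 (-0.46), and Xaf1 was the 1 higher member (log2 fold change 0.51 ± 0.16, adjusted p = 0.0185), a call lost without young Tgαq*44 mouse 1 (0.42), old FVB mouse 1 (0.41) or old FVB mouse 2 (0.47). Young FVB hearts averaged 18.8 ± 13.3 CPM of Igtp, near the young Tgαq*44 hearts. Igtp did not change steadily with age in FVB hearts, at 95.4 ± 104, 90.3 ± 91.9 and 30.0 ± 25.2 CPM at 8, 10 and 12 months. Its highest FVB heart reached 275 CPM at 8 months and 205 CPM at 10 months. Tgαq*44 hearts averaged 13.8, 6.88, 6.97 and 6.29 CPM of Igtp at 8, 10, 12 and 14 months.

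The interferon-stimulated response element, to which interferon-activated transcription factors bind (GAAA, 2 bases of any kind and GAAA again), was searched on both strands in the 250 bases before each RefSeq start. It was found in 19 of 37 interferon-list promoters (51.4%) and in 3 of 20 MHC promoters (15.0%), beside 3.04% of 27025 promoters of this length and 2.61% of those of the genes tested. Of 9 interferon-list genes called lower that had a promoter, 5 held it. The stretches of Igtp, Irgm2, Tgtp2 and B2m are printed because they belong to genes described here as lower, with the element in capitals. They are from RefSeq on GRCm38.p6, at chr11:58199436-58199555 (plus strand), chr11:58214857-58214976 (plus), chr11:49064213-49064332 (minus) and chr2:122147527-122147686 (plus), each read 5′ to 3′ towards the gene.
Igtp: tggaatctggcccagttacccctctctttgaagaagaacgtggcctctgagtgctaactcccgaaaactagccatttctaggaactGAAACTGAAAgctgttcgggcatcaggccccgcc
Irgm2: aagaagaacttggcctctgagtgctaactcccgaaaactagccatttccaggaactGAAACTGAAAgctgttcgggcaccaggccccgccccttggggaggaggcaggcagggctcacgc
Tgtp2: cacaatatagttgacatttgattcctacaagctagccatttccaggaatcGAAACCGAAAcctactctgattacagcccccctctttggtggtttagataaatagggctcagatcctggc
B2m: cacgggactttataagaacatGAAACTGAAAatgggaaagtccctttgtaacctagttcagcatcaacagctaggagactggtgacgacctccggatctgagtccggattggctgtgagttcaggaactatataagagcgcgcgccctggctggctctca
The element began 34, 64, 70 and 139 bases before the start of these genes, in that order. A match of letters is not a bound site.

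Several T cell and NK cell genes were lower. Of 16 markers 5, among them the granzyme Gzma, were too low to be tested. Of the 11 tested ones, 6 were lower and 0 were higher, and their summed level was 6.89 to 15.6 CPM in young Tgαq*44 hearts, against 8.11 to 27.0 CPM in old FVB hearts. The count was 3 without young Tgαq*44 mouse 2, 3 without old FVB mouse 2 and 3 with the ribosomal RNA covariate. In young FVB hearts these 11 markers summed to 4.78 to 8.33 CPM. Nkg7, a granule protein of cytotoxic cells, had 0.767, 0.366, 0.891, 1.57 and 1.11 CPM in young Tgαq*44 hearts, against 1.39, 2.80, 4.46, 4.72 and 5.96 CPM in old FVB hearts (log2 fold change -2.01 ± 0.34, adjusted p = 1.73e-05). Gzmb, the protease granzyme B, had 0.164, 0.122, 0.0594, 0.238 and 0 CPM in young Tgαq*44 hearts, against 0.0556, 1.75, 1.44, 0.643 and 2.76 CPM in old FVB hearts (log2 fold change -3.35 ± 0.65, adjusted p = 0.000130; by limma-voom the log2 fold change was -2.69). Cd3g, a chain of the T cell receptor complex, averaged 0.605 ± 0.337 CPM in young Tgαq*44 hearts and 1.61 ± 0.738 CPM in old FVB hearts (log2 fold change -1.30 ± 0.34, adjusted p = 0.00365). In all 3 genes old FVB mouse 1 was the lowest of its group. Cd7, a T and NK cell surface protein, was among the 15 lowest DEGs, at 0.767, 0.549, 0.832, 0.811 and 0.369 CPM in young Tgαq*44 hearts, against 0.889, 3.41, 6.74, 2.36 and 7.17 CPM in old FVB hearts (log2 fold change -2.60 ± 0.42, adjusted p = 6.82e-06). The general leukocyte marker Ptprc had a log2 fold change of -0.12 (95% interval -0.57 to 0.33). Old FVB mouse 1 had the lowest summed level of its group for T and NK markers (8.11 CPM), MHC genes (1704 CPM) and interferon response genes (534 CPM), and the part of these cells in the MHC and interferon results was not tested.

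**Figure D3:**
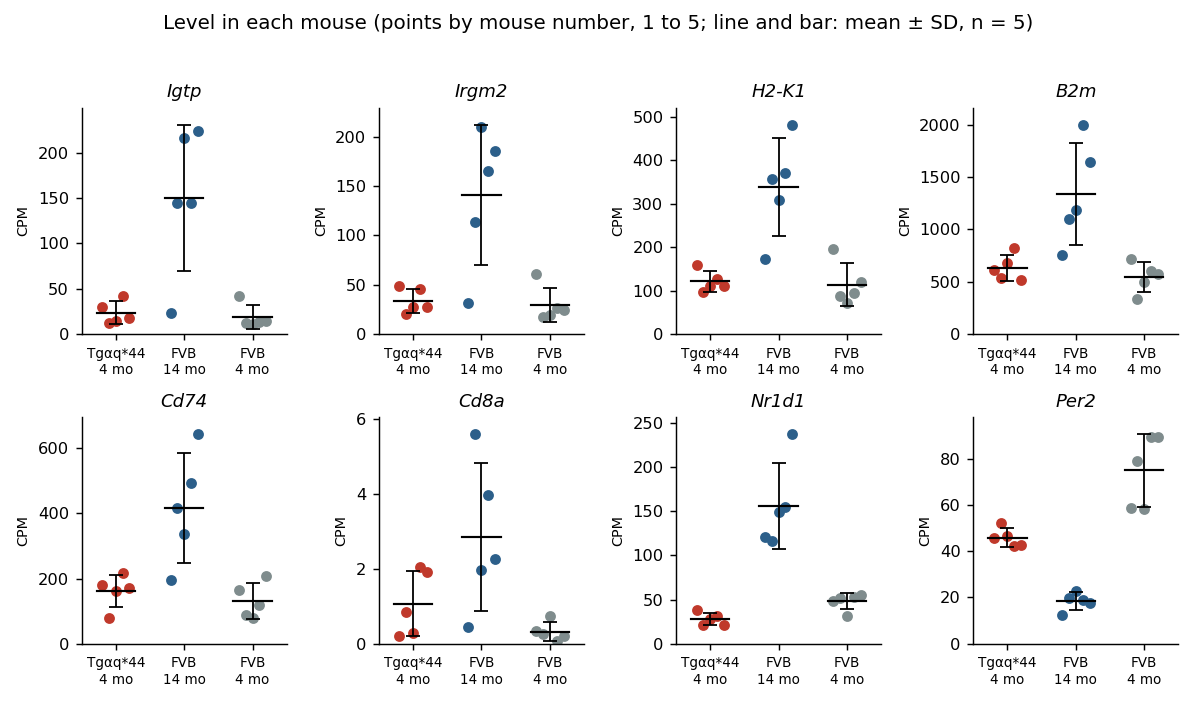
CPM per mouse (points) with mean and SD (bars) of Igtp, Irgm2, H2-K1, B2m, Cd74, Cd8a, Nr1d1 and Per2 in young Tgαq*44, old FVB and young FVB hearts (n = 5 each). For Igtp, 4 of 5 old FVB hearts lie above every young Tgαq*44 heart and 1 lies among them, whereas Nr1d1 and Per2 separate young Tgαq*44 from old FVB hearts fully.

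Core clock genes differed in both directions. Of 19, 7 were higher (36.8%) and 5 were lower (26.3%), and the lower count was 3 with the ribosomal RNA covariate. Nr1d1, the repressor REV-ERBalpha, had 37.9, 21.1, 28.0, 31.3 and 21.3 CPM in young Tgαq*44 hearts, against 121, 116, 149, 155 and 237 CPM in old FVB hearts (log2 fold change -2.47 ± 0.33, adjusted p = 2.25e-07). Per2, a repressor of the main clock loop, had 45.8, 52.3, 46.5, 42.3 and 42.5 CPM in young Tgαq*44 hearts, against 12.6, 20.0, 22.9, 19.1 and 17.5 CPM in old FVB hearts (log2 fold change 1.32 ± 0.35, adjusted p = 0.00507). Both separated the groups fully, and young FVB hearts stood at 48.1 ± 9.38 CPM for Nr1d1 and 74.9 ± 15.6 CPM for Per2. Cry1 had 11.5, 12.9, 11.9, 10.4 and 11.9 CPM in young Tgαq*44 hearts, against 5.72, 6.74, 6.51, 6.33 and 6.25 CPM in old FVB hearts (log2 fold change 0.89 ± 0.16, adjusted p = 2.76e-05). Npas2, an activating partner of Bmal1, was lower (log2 fold change -1.16 ± 0.30, adjusted p = 0.00381), and Per3 and Hlf, an output transcription factor, were higher by 0.88 ± 0.22 and 0.83 ± 0.19 on the log2 scale. Clock had a log2 fold change of -0.23 (95% interval -0.52 to 0.07). The hour at which each heart was taken was not given in the sources used here, and its part in these values was not tested.

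The E-box CACGTG, to which the clock activators bind, was searched on both strands in the same promoters. It was found in 5 of 16 clock promoters (31.3%), beside 8.39% of the promoters of genes tested. Cry1 and Ciart are printed as a higher and a lower member with it, at chr10:85185055-85185174 and chr3:95882229-95882348 of GRCm38.p6, both on the minus strand and read 5′ to 3′ with the E-box in capitals.
Cry1: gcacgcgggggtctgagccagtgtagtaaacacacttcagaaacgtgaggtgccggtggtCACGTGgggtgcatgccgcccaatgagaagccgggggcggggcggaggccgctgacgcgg
Ciart: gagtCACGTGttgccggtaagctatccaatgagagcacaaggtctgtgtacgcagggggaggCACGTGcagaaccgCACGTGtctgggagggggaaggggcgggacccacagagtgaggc
Ciart, a clock repressor with 3 matches in this stretch, had 3.12, 4.09, 4.75, 3.86 and 4.50 CPM in young Tgαq*44 hearts, against 8.83, 7.88, 9.91, 10.2 and 10.9 CPM in old FVB hearts (log2 fold change -1.24 ± 0.33, adjusted p = 0.00489), a call lost with the ribosomal RNA covariate (-0.81, adjusted p = 0.146).

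Some genes of energy use were lower in young Tgαq*44 hearts across several lists. Of 39 genes of fatty acid oxidation 12 were lower (30.8%) and 2 higher, of 20 genes of the tricarboxylic acid cycle 7 were lower (35.0%) and 0 higher, and of 25 genes of glycolysis 10 were lower (40.0%) and 0 higher. Against young FVB hearts the fatty acid oxidation list was lower in both groups, with median log2 fold changes of -0.44 in young Tgαq*44 and -0.25 in old FVB hearts. In the same order the medians were -0.31 and -0.05 for the tricarboxylic acid cycle and -0.14 and 0.05 for glycolysis. Over all genes they were 0.0007 and 0.025, and these comparisons share the young FVB libraries. The tricarboxylic acid cycle count was 2 and the glycolysis count 5 with the ribosomal RNA covariate, and leaving out 1 heart at a time gave 5 to 11 for glycolysis, with 5 without old FVB mouse 5 and 6 without young Tgαq*44 mouse 1 or 3. Idh2, mitochondrial isocitrate dehydrogenase, had 1378, 1104, 1501, 1488 and 1531 CPM in young Tgαq*44 hearts, against 2047, 2624, 2369, 2144 and 2680.2 CPM in old FVB hearts (log2 fold change -0.76 ± 0.11, adjusted p = 4.57e-07). Aldoa, the muscle aldolase, had 2784, 2889.5, 2864, 3234 and 3189 CPM in young Tgαq*44 hearts, against 4880.2, 5780.5, 5203, 4901 and 6415 CPM in old FVB hearts (log2 fold change -0.86 ± 0.14, adjusted p = 4.79e-06). Neither gene overlapped between the groups. Pdk2, a kinase that switches off pyruvate dehydrogenase, averaged 572 ± 124 CPM in young Tgαq*44 hearts and 1127 ± 267 CPM in old FVB hearts (log2 fold change -0.98 ± 0.20, adjusted p = 0.000263). Ucp3, a mitochondrial carrier induced by fatty acids, averaged 12.4 ± 4.16 CPM in young Tgαq*44 hearts and 28.2 ± 10.0 CPM in old FVB hearts (log2 fold change -1.18 ± 0.33, adjusted p = 0.00687).

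Ppara, the receptor that induces fatty acid oxidation genes, was among the higher members. It had 39.8, 26.9, 30.4, 37.1 and 37.3 CPM in young Tgαq*44 hearts, against 11.2, 8.14, 14.7, 12.3 and 7.26 CPM in old FVB hearts (log2 fold change 1.69 ± 0.25, adjusted p = 1.68e-06), and 55.9 ± 8.71 CPM in young FVB hearts. With the ribosomal RNA covariate its log2 fold change was 1.21, still past the threshold. Ppara did not change steadily with age, at 55.9, 24.0, 12.6, 41.4 and 10.7 CPM in FVB hearts of 4, 8, 10, 12 and 14 months. In Tgαq*44 hearts of these ages Ppara averaged 34.3, 15.9, 7.47, 20.3 and 13.5 CPM. Its target Acot1, an acyl-CoA thioesterase, was lower, at 1.92, 1.83, 2.79, 1.57 and 2.81 CPM in young Tgαq*44 hearts, against 4.50, 10.7, 5.52, 4.93 and 5.47 CPM in old FVB hearts (log2 fold change -1.51 ± 0.31, adjusted p = 0.000222), and the log2 fold change of the related Acot2 was -0.95 ± 0.26. Acot1 and Acot2 are near copies, so their split of reads is uncertain. Of 16 genes of ketone body and branched-chain amino acid use, 7 were lower (43.8%) and 0 higher, with 4 lower without old FVB mouse 2 and 3 with the covariate. Bcat2, which starts branched-chain amino acid breakdown, had 54.9 to 72.6 CPM in young Tgαq*44 hearts, against 75.8 to 106 CPM in old FVB hearts (log2 fold change -0.54 ± 0.12, adjusted p = 0.000916). Of 73 nuclear genes of oxidative phosphorylation 10 were lower (13.7%) and 0 higher, with a median log2 fold change of -0.07, and of 10 mitochondrially encoded genes tested 0 passed the test in either direction by edgeR and 0 reached an unadjusted p under 0.05. Ndufa8, a subunit of complex I, was the lowest of the 73, at 89.8 to 116 CPM in young Tgαq*44 hearts, against 166 to 223 CPM in old FVB hearts (log2 fold change -0.91 ± 0.15, adjusted p = 5.4e-06).

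Calcium handling genes were more often called lower, and ion channel genes more often called higher, than all genes. Of 26 calcium handling genes 3 were higher (11.5%) and 6 were lower (23.1%). Of 30 cardiac ion channels 7 were higher (23.3%) and 3 were lower (10.0%). Called or not, 12 channels had a log2 fold change above 0 and 18 below, with a median of -0.09. The median of the calcium handling genes was -0.03. Against young FVB hearts the channel median was -0.39 in young Tgαq*44 hearts and -0.52 in old FVB hearts, so the list was lower in both. Atp2b4, a plasma membrane calcium pump, had 70.1, 61.6, 60.1, 55.5 and 64.0 CPM in young Tgαq*44 hearts, against 33.9, 32.4, 32.0, 41.1 and 34.8 CPM in old FVB hearts (log2 fold change 0.84 ± 0.09, adjusted p = 1.55e-09). Camk2b, a calcium and calmodulin kinase, had 9.86, 8.73, 10.9, 10.4 and 11.7 CPM in young Tgαq*44 hearts, against 17.2, 19.3, 20.2, 18.2 and 27.3 CPM in old FVB hearts (log2 fold change -0.99 ± 0.14, adjusted p = 2.9e-07). Both genes separated the groups fully, in opposite directions. Atp2a2, the sarcoplasmic reticulum calcium pump, had 7898, 8708, 9627, 9029 and 9354 CPM in young Tgαq*44 hearts, against 10861, 11011, 11307, 11023 and 10679 CPM in old FVB hearts (log2 fold change -0.30 ± 0.08, adjusted p = 0.00684), a call lost with the ribosomal RNA covariate (-0.17, adjusted p = 0.197). Its partner Pln and the release channel Ryr2 had log2 fold changes of -0.02 (95% interval -0.33 to 0.28) and 0.13 (95% interval -0.13 to 0.38).

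Among the channels, Kcnj5, a subunit of the acetylcholine-activated potassium channel, averaged 58.0 ± 7.33 CPM in young Tgαq*44 hearts and 38.0 ± 4.63 CPM in old FVB hearts (log2 fold change 0.61 ± 0.12, adjusted p = 0.000205). Kcnq1, which carries the slow delayed rectifier, was lower at 35.8 to 46.8 CPM in young Tgαq*44 hearts, against 53.8 to 90.1 CPM in old FVB hearts (log2 fold change -0.72 ± 0.14, adjusted p = 0.000200). Scn4b, a sodium channel beta subunit, was also lower (log2 fold change -0.73 ± 0.19, adjusted p = 0.00406). In the adrenergic and cAMP list 5 of 26 genes were higher (19.2%) and 6 lower (23.1%). Adcy9, an adenylyl cyclase, was higher at 30.0, 21.5, 19.3, 19.5 and 24.5 CPM in young Tgαq*44 hearts, against 11.4, 9.11, 16.2, 10.7 and 8.09 CPM in old FVB hearts (log2 fold change 1.05 ± 0.18, adjusted p = 1.14e-05), together with Adcy6 and Adcy7, whose log2 fold changes were 0.78 ± 0.13 and 1.00 ± 0.16. Arrb1, the beta-arrestin that desensitises receptors, had 37.4 to 47.4 CPM in young Tgαq*44 hearts, against 18.2 to 26.4 CPM in old FVB hearts (log2 fold change 1.00 ± 0.12, adjusted p = 8.93e-09). No heart overlapped between the groups for these cyclases and Arrb1.

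Among sarcomere and stress protein genes, lower members outnumbered higher ones. Of 28 sarcomere and Z disc genes 2 were higher (7.14%) and 7 were lower (25.0%). Ldb3, a Z disc scaffold, had 979, 1052, 1152, 1173 and 1303 CPM in young Tgαq*44 hearts, against 1683, 1889, 1778, 1787 and 2269.6 CPM in old FVB hearts (log2 fold change -0.73 ± 0.13, adjusted p = 4.43e-05). Tcap, the titin cap telethonin, had 190.2, 162, 164, 158 and 142 CPM in young Tgαq*44 hearts, against 288, 313, 245, 244 and 339 CPM in old FVB hearts (log2 fold change -0.81 ± 0.17, adjusted p = 0.000356), below the 543 ± 134 CPM of young FVB hearts in both groups. Of 20 heat shock proteins 8 were lower (40.0%) and 0 higher, with 5 lower without young Tgαq*44 mouse 1, 5 without old FVB mouse 2 and 3 with the ribosomal RNA covariate. Cryab, the small heat shock protein alphaB-crystallin, had 1612, 2154, 2374, 2444 and 2734 CPM in young Tgαq*44 hearts, against 3179, 3792, 3584, 3746 and 5416 CPM in old FVB hearts (log2 fold change -0.80 ± 0.15, adjusted p = 9.07e-05). Hspb6, another small heat shock protein, averaged 1019.6 ± 171 CPM in young Tgαq*44 hearts and 2078 ± 438 CPM in old FVB hearts (log2 fold change -1.03 ± 0.20, adjusted p = 0.000146). Neither overlapped. Of 28 antioxidant genes 7 were lower (25.0%) and 1 was higher. Catalase (Cat) was lower (log2 fold change -0.61 ± 0.12, adjusted p = 0.000193), as was extracellular superoxide dismutase (Sod3, log2 fold change -0.96 ± 0.23, adjusted p = 0.00143), and the glutathione transferase Gsta3 was the higher member, at 14.0 to 21.3 CPM in young Tgαq*44 hearts, against 5.23 to 8.72 CPM in old FVB hearts (log2 fold change 1.34 ± 0.21, adjusted p = 4.99e-06).

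Of 28 genes of the unfolded protein and integrated stress responses, 4 were higher (14.3%) and 3 were lower (10.7%), near the background shares. The higher ones were Mthfd2, Asns, Psat1 and Chac1 of amino acid, one-carbon and glutathione metabolism. Mthfd2, a mitochondrial enzyme of folate metabolism, had 7.67, 12.9, 4.69, 7.96 and 9.16 CPM in young Tgαq*44 hearts, against 2.89, 2.36, 3.48, 2.25 and 2.71 CPM in old FVB hearts (log2 fold change 1.61 ± 0.24, adjusted p = 1.02e-06). Asns, asparagine synthetase, had 8.49, 15.2, 7.73, 8.68 and 9.75 CPM in young Tgαq*44 hearts, against 4.39, 3.94, 3.63, 6.11 and 4.31 CPM in old FVB hearts (log2 fold change 1.17 ± 0.20, adjusted p = 1.75e-05). Both are targets of the transcription factor Atf4, and both separated the groups fully, while Atf4 and Ddit3 had log2 fold changes of -0.05 (95% interval -0.35 to 0.25) and 0.01 (95% interval -0.32 to 0.34). Igf1, an insulin-like growth factor, had 14.5, 27.6, 16.8, 15.7 and 15.1 CPM in young Tgαq*44 hearts, against 9.00, 6.57, 8.55, 8.58 and 9.20 CPM in old FVB hearts (log2 fold change 1.09 ± 0.16, adjusted p = 6.16e-07). Trp53, the tumour suppressor p53, was lower at 37.1 to 44.5 CPM in young Tgαq*44 hearts, against 51.7 to 77.1 CPM in old FVB hearts (log2 fold change -0.59 ± 0.13, adjusted p = 0.000500), and the polo-like kinase Plk2 was higher (log2 fold change 0.87 ± 0.13, adjusted p = 1.1e-06). In the whole senescence and p53 list, 2 of 26 genes were higher and 2 lower (7.69% each), below the background shares.

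Of 33 cell cycle genes 10 were higher (30.3%) and 1 was lower, with a median log2 fold change of 0.61, and this count changed with single hearts. It was 2 without young Tgαq*44 mouse 2, 5 without old FVB mouse 1, 4 without old FVB mouse 2, 5 without old FVB mouse 3, 6 without old FVB mouse 5 and 0 with the ribosomal RNA covariate. The cyclin gene Ccnd1 was the lower member, at 36.8 to 48.3 CPM in young Tgαq*44 hearts, against 49.6 to 71.9 CPM in old FVB hearts (log2 fold change -0.53 ± 0.13, adjusted p = 0.00272). Of 28 angiogenesis genes 5 were higher (17.9%) and 2 were lower (7.14%). Of 26 Wnt signalling genes 3 were higher and 3 lower (11.5% each), near the background shares. Wif1, a secreted Wnt inhibitor, had 11.9, 7.20, 19.3, 10.9 and 14.8 CPM in young Tgαq*44 hearts, against 34.7, 37.7, 38.1, 40.0 and 51.0 CPM in old FVB hearts (log2 fold change -1.66 ± 0.20, adjusted p = 2.47e-08), and the ligand Wnt2b was higher (log2 fold change 1.11 ± 0.20, adjusted p = 5.23e-05). The endothelial junction gene Cldn5 had 5.32, 7.63, 9.27, 6.29 and 18.7 CPM in young Tgαq*44 hearts, against 22.2, 30.6, 19.0, 22.5 and 20.1 CPM in old FVB hearts (log2 fold change -1.29 ± 0.24, adjusted p = 7.54e-05). Endothelial markers as a whole summed to 2656 to 3176 CPM in young Tgαq*44 hearts and 2740 to 3055 CPM in old FVB hearts. Of 21 glucocorticoid-responsive genes, 1 was higher and 1 lower (4.76% each), below the background shares. Both groups lay below the young FVB hearts in this list. Its median log2 fold change against them was -1.41 in young Tgαq*44 hearts and -1.31 in old FVB hearts. Fkbp5 of this list averaged 7.43 ± 1.54 CPM in young Tgαq*44 hearts and 7.90 ± 2.13 CPM in old FVB hearts, beside 46.2 ± 24.7 CPM in young FVB hearts.

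**Figure D4:**
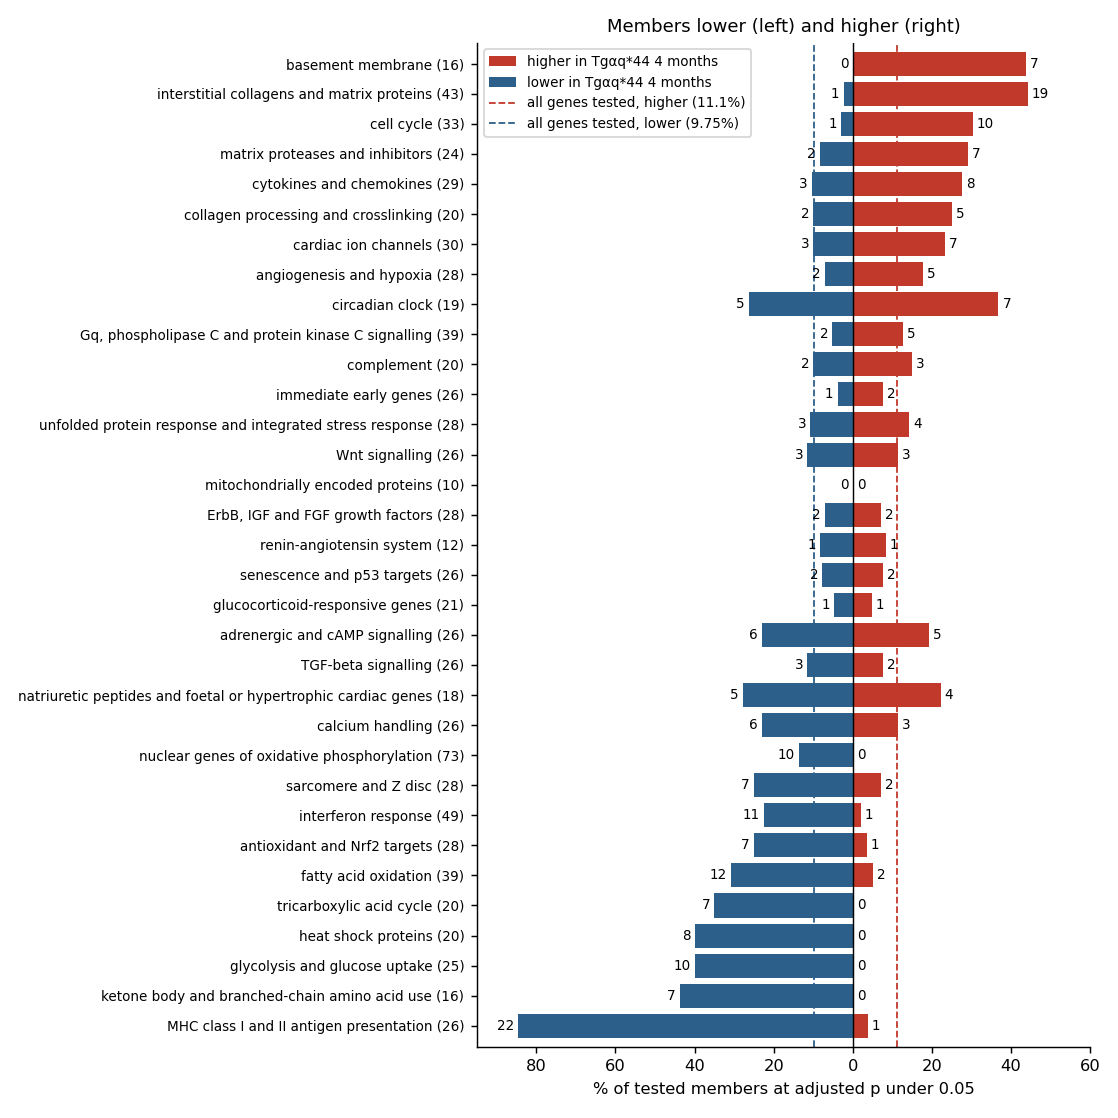
Share of tested members (percent, horizontal axis) that were lower (left) or higher (right) in young Tgαq*44 than in old FVB hearts at an adjusted p under 0.05, for each pathway list. Dashed lines mark the shares over all 15129 genes, 9.75% lower and 11.1% higher, and MHC antigen presentation reaches 84.6% lower while interstitial matrix reaches 44.2% higher.

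Several of the 15 highest protein-coding DEGs were lower in old FVB hearts than in both groups of young hearts. Hipk2, a nuclear serine/threonine kinase (GRCm38.p6, chromosome 6, 38694390 to 38876165), had 214, 157, 167, 221 and 219 CPM in young Tgαq*44 hearts, against 25.6, 26.3, 36.2, 38.9 and 33.6 CPM in old FVB hearts (log2 fold change 2.61 ± 0.23, adjusted p = 1.13e-11). Heg1, a transmembrane receptor of heart and vessel development, had 346, 254, 283, 303 and 336 CPM in young Tgαq*44 hearts, against 71.2, 67.4, 79.0, 79.8 and 55.9 CPM in old FVB hearts (log2 fold change 2.11 ± 0.19, adjusted p = 9.39e-12). Nt5c1a, a cytosolic 5′-nucleotidase that forms adenosine, had 20.4, 13.0, 16.2, 17.4 and 21.3 CPM in young Tgαq*44 hearts, against 1.06, 1.49, 2.04, 2.36 and 1.84 CPM in old FVB hearts (log2 fold change 3.35 ± 0.42, adjusted p = 9.88e-08). None of these overlapped, and young FVB hearts were high as well, at 247 ± 44.0, 267 ± 23.3 and 29.0 ± 3.34 CPM. The matrix protein gene Sned1 and the somatostatin receptor gene Sstr4 had the same order, with log2 fold changes of 2.08 ± 0.23 and 2.81 ± 0.46.

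These genes did not change steadily with age. Hipk2 averaged 247, 118, 44.9, 177 and 32.1 CPM in FVB hearts at 4, 8, 10, 12 and 14 months. In Tgαq*44 hearts of the same ages it averaged 196, 106, 42.1, 189 and 104 CPM. In both strains the mean at 10 months lay below those at 8 and 12 months. The ribosomal RNA gene CT010467.1 averaged 23709, 13467, 8073, 23549 and 7251 CPM in FVB hearts at these ages, and its mean at 10 months also lay below those at 8 and 12 months. With its level as a covariate the log2 fold changes were 2.04 for Hipk2, 1.55 for Heg1, 2.25 for Nt5c1a, 1.53 for Sned1 and 1.66 for Sstr4, smaller in each case and still past the threshold. Slc38a1, a glutamine transporter, had 12.1, 10.7, 9.80, 9.16 and 11.7 CPM in young Tgαq*44 hearts, against 3.17, 2.28, 3.63, 3.00 and 1.99 CPM in old FVB hearts (log2 fold change 1.93 ± 0.18, adjusted p = 5.28e-11). Kcnn3, a calcium-activated potassium channel, had 5.97, 6.65, 5.82, 5.44 and 5.09 CPM in young Tgαq*44 hearts, against 1.94, 1.84, 1.66, 1.82 and 1.60 CPM in old FVB hearts (log2 fold change 1.71 ± 0.17, adjusted p = 2.78e-10). Both of these separated the groups fully. Pirt, a regulator of ion channels, and Angptl7, an angiopoietin-like secreted protein, complete the 15, with log2 fold changes of 1.84 ± 0.25 and 1.88 ± 0.35.

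The 15 lowest DEGs held genes that were low in Tgαq*44 hearts at every age. Cyp2b10, a cytochrome P450, had 3.01, 3.23, 3.80, 3.20 and 3.03 CPM in young Tgαq*44 hearts, against 62.2, 37.7, 45.3, 60.2 and 35.4 CPM in old FVB hearts (log2 fold change -3.88 ± 0.39, adjusted p = 5.81e-10), and 34.8 ± 13.5 CPM in young FVB hearts. Cyp2b genes are similar to each other, and reads may be shared among them. Acsm5, an acyl-CoA synthetase of mitochondria, had 1.53, 1.40, 1.66, 1.43 and 1.40 CPM in young Tgαq*44 hearts, against 9.56, 9.98, 10.6, 7.93 and 7.46 CPM in old FVB hearts (log2 fold change -2.60 ± 0.26, adjusted p = 2.5e-10). Its mean stood between 0.341 and 1.49 CPM over the 5 ages of Tgαq*44 mice and between 7.60 and 9.87 CPM over those of FVB mice. Against young FVB hearts its log2 fold change was -2.37 in young Tgαq*44 hearts (adjusted p = 3.79e-09) and 0.23 in old FVB hearts (adjusted p = 0.522). The difference between strains was thus past the threshold at 4 months too. Klk1b26, a kallikrein with near copies, had a log2 fold change of -3.15 ± 0.49, and of -3.97 without young Tgαq*44 mouse 2.

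Other genes among the lowest were higher with age in FVB hearts. Vgll2, a cofactor of TEAD transcription factors known from skeletal muscle, had 1.04, 3.54, 1.01, 1.81 and 2.14 CPM in young Tgαq*44 hearts, against 16.2, 16.7, 15.8, 12.8 and 28.5 CPM in old FVB hearts (log2 fold change -3.26 ± 0.31, adjusted p = 6.38e-11), and young FVB hearts stood at 1.86 ± 1.01 CPM. Edn3, the peptide endothelin 3, had 1.59, 1.40, 0.773, 1.05 and 1.18 CPM in young Tgαq*44 hearts, against 7.56, 7.36, 7.79, 8.26 and 9.20 CPM in old FVB hearts (log2 fold change -2.74 ± 0.24, adjusted p = 9.39e-12). Cpne4, a calcium-dependent membrane-binding copine, had 0.603, 0.427, 1.01, 0.858 and 0.591 CPM in young Tgαq*44 hearts, against 7.83, 8.76, 4.77, 6.33 and 6.83 CPM in old FVB hearts (log2 fold change -3.28 ± 0.31, adjusted p = 5.82e-11). None of these 3 overlapped between young Tgαq*44 and old FVB hearts. Young FVB hearts stood at 3.20 ± 0.343 CPM for Edn3 and 1.11 ± 0.289 CPM for Cpne4. For Edn3 every young FVB heart lay above every young Tgαq*44 heart, so the strains also differed at 4 months. At 14 months Tgαq*44 hearts averaged 59.3 CPM of Vgll2 and 22.1 CPM of Edn3, above the old FVB hearts. Cpne4 stayed below them, at 2.21 CPM in Tgαq*44 hearts at 14 months, beside 6.90 CPM in old FVB hearts. Amtn, amelotin of tooth enamel, had a log2 fold change of -4.11 ± 0.42 (-5.29 without young Tgαq*44 mouse 3), and Apol9a, an apolipoprotein L gene with a near copy, of -3.54 ± 0.57. The protease gene Tmprss4, the synaptic scaffold gene Dlgap1 and the endophilin gene Sh3gl2 had log2 fold changes of -2.95 ± 0.35, -2.73 ± 0.30 and -2.47 ± 0.25, and that of Dlgap1 was -3.35 with the covariate.

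**Figure D5:**
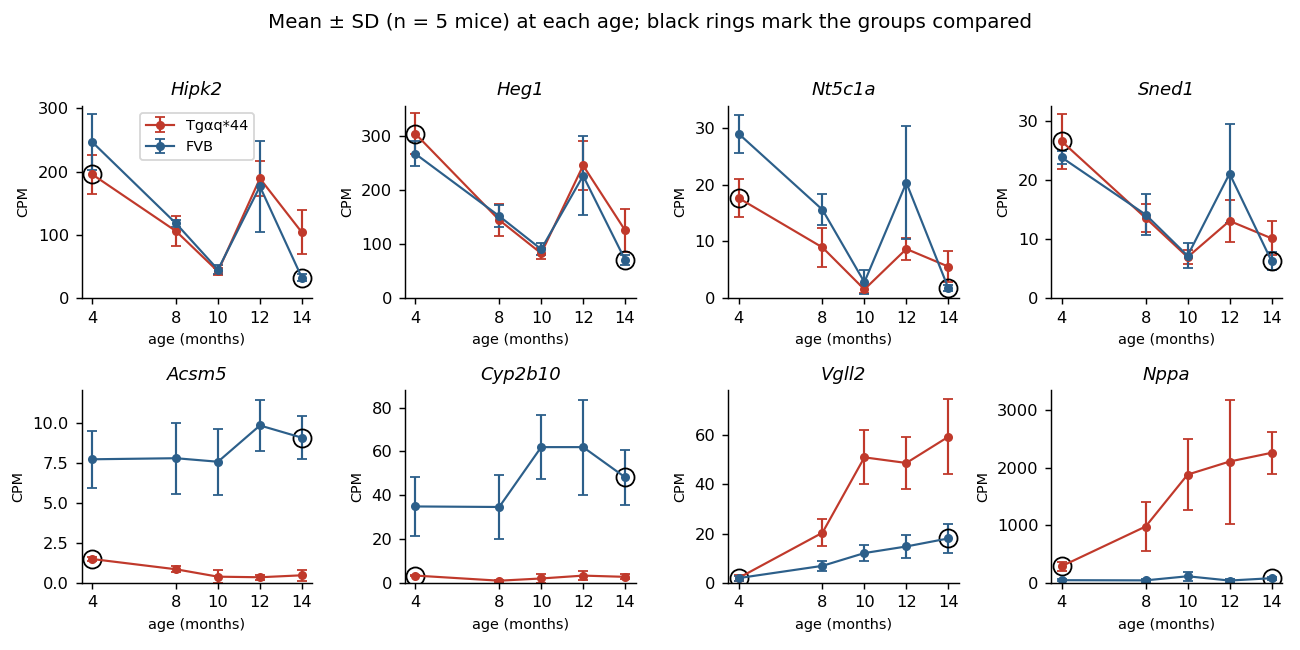
Mean CPM ± SD (n = 5 mice per point) of Hipk2, Heg1, Nt5c1a, Sned1, Acsm5, Cyp2b10, Vgll2 and Nppa in Tgαq*44 and FVB hearts against age in months, with rings on the compared groups. The means of Hipk2, Heg1, Nt5c1a and Sned1 at 10 months lie below those at 8 and 12 months in both strains, Acsm5 and Cyp2b10 stay low in Tgαq*44 hearts at every age, and Nppa reaches 2258 CPM in Tgαq*44 hearts at 14 months.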

How the data were processed

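Gene counts of 50 mouse heart libraries, 5 female mice for each strain and age, were the starting point. Per the labels, RNA of the left ventricular apex was extracted with DNase treatment, poly(A) libraries were made with the Lexogen Sense mRNA-Seq kit and sequenced on NextSeq. The submitters' processing notes name cutadapt, FastQC, HTSeq, limma and GRCm38.p6, without versions or strand setting. The deposited counts are whole numbers of reads per gene, not normalized, as the authors' counting gave them. The authors' own fold changes and p-values between groups were not used.

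Libraries held 8772914 to 21601942 counts, and this depth limits genes of low level. Genes with more than 0.5 CPM in more than 3 libraries of at least 1 group were tested (15129 of 54532). One model of 10 groups was fitted with edgeR 4.0.16 (R 4.3.3, TMM scaling, robust quasi-likelihood), and the contrast of Tgαq*44 at 4 months minus FVB at 14 months was tested with Benjamini-Hochberg adjustment over all tested genes. DEGs passed an adjusted p of 0.05 and an absolute log2 fold change of 1, and list members were counted at the adjusted p alone. Errors given with ± are SD for CPM and standard errors for log2 fold changes, and intervals are 95%. The labels name each library as a separate mouse.

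Named genes were Gnaq, genes the study names, the 15 highest and the 15 lowest protein-coding DEGs without overlap and with a mean of at least 1 CPM, and of each list up to 4 called members in each direction plus defining members, apart from a few genes not reported here. The members and lists were chosen with earlier results of these data known. The alternatives were DESeq2 1.42.0 and its size factors, limma-voom (limma 3.58.1), other filters, the 10 libraries alone, no mitochondrial genes, a replicate block, and leaving out each mouse. The ribosomal RNA covariate was added after seeing the data. The tests were checked on simulated data. Promoters were taken from RefSeq on GRCm38.p6.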

Additional observations from a re-analysis of the deposited data

Results flagged for a closer look

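Of 454 groups of 5 hearts examined, 28 (6.17%) had a heart whose gap to its nearest neighbour exceeded Dixon's 95% limit, taken relative to the whole range, and chance gives about 5%. In young Tgαq*44 hearts the highest value stood apart for Cilp (17.0 CPM), Cyp2b10 (3.80 CPM), Xirp1 (552 CPM), Adamts15 (4.88 CPM), H2-DMb2 (0.954 CPM), Tpx2 (6.10 CPM), Asns (15.2 CPM), Aplnr (168 CPM), Igf1 (27.6 CPM), Frzb (24.6 CPM), Mfap5 (88.4 CPM), Col8a1 (21.4 CPM) and Pdpn (24.4 CPM). In old FVB hearts a single heart stood apart for Sfrp2 (4.16 CPM), Il1rn (0.858 CPM), Angptl7 (1.29 CPM), Vgll2 (28.5 CPM), Pcolce2 (26.6 CPM), Agtr1a (79.0 CPM), Acot1 (10.7 CPM), Cryab (5416 CPM), Nrg4 (3.54 CPM) and Cnn1 (3.41 CPM). The lowest old FVB heart stood apart for Ace (64.8 CPM), Jph1 (13.3 CPM) and Igf1 (6.57 CPM). The share of Myh7 in Myh6 and Myh7 counts reached 8.73% in old FVB mouse 5 and the haemoglobin share reached 0.307% in old FVB mouse 1. Young Tgαq*44 mouse 2 was the separate heart in 8 of these groups and old FVB mouse 5 in 6. The causes were not tested.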

How the results depend on the processing

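Of 223 named log2 fold changes, the 215 that passed the threshold kept their direction under the 19 alternatives, and 134 passed it under every one. Genes given here that did not pass could change sign with the ribosomal RNA covariate. Among them were Itga11 (0.12, against -0.08 without it) and Pln (0.32, against -0.02 without it). The same-numbered mice were not taken as pairs, since the correlation of their deviations lay between 0.0412 and 0.491 and 1 pair was below 0.1, although 4 of 5 Tgαq*44 mice correlated best with the FVB mouse of their own number. With a replicate block 362 DEGs were higher and 275 lower, against 357 and 262 without it. At the adjusted p alone, 1878 genes were higher and 1770 lower with the block, against 1683 and 1475 without it. Other tools and filters gave 342 to 370 higher and 248 to 297 lower DEGs, and leaving out 1 mouse gave 299 to 375 higher and 251 to 281 lower ones. With the ribosomal RNA level as a covariate, 206 DEGs were higher and 273 lower, and the counts of called members were 7 (interferon response, lower), 3 (T and NK cell markers, lower), 12 (matrix, higher), 0 (cell cycle, higher), 2 (tricarboxylic acid cycle, lower), 5 (glycolysis, lower), 3 (ketone body and branched-chain amino acid use, lower), 3 (heat shock proteins, lower) and 3 (clock, lower). With no filter on low counts they were 3 (cell cycle, higher), 5 (oxidative phosphorylation, lower) and 4 (clock, higher). The causes were not tested. Leaving out 1 mouse at a time gave 3 to 6 T and NK cell markers lower, 2 to 11 cell cycle genes higher, 5 to 11 glycolysis genes, 4 to 7 ketone body and branched-chain amino acid genes and 5 to 8 heat shock genes lower. The difference between groups, Tgαq*44 minus FVB, was then 0.438 to 1.84 percentage points for the Myh7 share, -2.20 to -0.747 for the Acta1 share and -0.233 to 1.73 for the mitochondrial share.

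Strain and age, and any unlabelled batch that follows them, cannot be told apart here. With 5 mice a group the smallest exact p was 0.00794, and 12006 of 15129 genes had an interval within 2-fold in either direction. For genes under about 1 CPM a few reads set the value.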
